A study of Mus musculus with 162 samples.

Results

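The clustered protocadherins of single mouse embryonic cortical cells are described here, gene by gene and cell by cell. The genes taken are those of the deposited normalized table whose symbol is Pcdha, Pcdhb or Pcdhg with a member number, and this rule found 22 genes among 22800, Pcdhb1 to Pcdhb22. The alpha and gamma clusters stand in that table as a single row each, Pcdha and Pcdhg, so their members were read from the deposited count table, which holds 14 alpha and 21 gamma identifiers among 22880. Together these make 57 clustered protocadherin identifiers.

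Clustered protocadherins are homophilic cell adhesion molecules encoded by adjacent alpha, beta and gamma gene clusters. Each neuron is known to express a small set of them by choice among many promoters, which gives neighbouring neurons different surface identities used in self-avoidance of their neurites. An alpha or gamma transcript joins a variable exon to constant exons shared by its cluster, whereas a beta gene carries its whole coding sequence in a single exon. The C-type members at the end of the alpha and gamma clusters are known to be under less random control than the others.

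The samples were 162 single cells from which cytosol was drawn through patch-clamp pipettes at E17.5 to E18.5 (embryonic age), and all but 14 of them passed the authors' quality control. The cells came from 3 driver lines, with 114 passed cells of the Htr3a Cre line, 17 of the Lhx6 Cre line and 17 of the Nex Cre line. These lines label the cells in which Cre is driven, and no further allele, strain, animal or litter is named. The type labels, used here as given, put 18 passed cells in MGE-derived 1, 24 in MGE-derived 2, 11 in CGE-derived, 4 in GABAergic, 33 in Glutamatergic 1, 13 in Glutamatergic 2, 12 in Cajal Retzius, 11 in VZ-derived and 22 in Undefined. The first 4 labels are called the GABAergic class below (57 cells), and the Glutamatergic labels the glutamatergic class (46 cells). Since no animal is named, each group counts as 1 sample. Differences between groups therefore carry no p-value, and the SD given is the spread between cells. Cell numbers follow accession order and only name a cell.

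Passed cells held 1710224 to 24836041 counts (median 9463972.5) over 2066 to 14811 identifiers with a count (median 5364). The GABAergic markers (Gad1, Gad2 and 5 others) summed to a median of 2104 counts per 1000000 counts of the cell (CPM) in MGE-derived 1, 1749 in MGE-derived 2, 2527 in CGE-derived and 0 in both glutamatergic labels. The Cajal-Retzius markers had a median of 12011 CPM in the cells of that label. The VZ-derived cells did not carry the ventricular zone markers (Sox2, Pax6, Nes and 4 others) as a group, with a median of 0 CPM and 3 of 11 cells above 10 CPM, while all 11 held glutamatergic markers (median 984.6 CPM). They are called by their label only. The 6 microglia markers passed 10 CPM in 41 passed cells.

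Within a cell, most alpha identifiers held exactly the same count, and so did most gamma identifiers. In the 112 cells where the lowest alpha count was at least 10, a median of 12 of the 14 alpha identifiers stood at that lowest value, and in 122 such cells for gamma the median was 18 of 21. The repeated value is called the shared count here and read as the level of the cluster. What an identifier held above it is called its own counts, a lower limit for its reads outside the exons shared by the cluster. The authors' single Pcdha row was a median of 1.16 times the alpha shared count, and their Pcdhg row 1.10 times the gamma shared count. The beta genes needed no such split, and the same cells had values above 0 in both tables for 22 of 22 beta genes.

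Beta members were counted in few cells each and in small numbers per cell. A member is called counted in a cell that holds at least 1 read of it. Of all passed cells, 108 (73.0%, exact Clopper-Pearson 95% interval 65.1 to 79.9%) held at least 1 beta member, 40 held none, 33 held 1, 31 held 2, 12 held 3 and 12 held 4. The mean was 2.05 members ± 2.14 (SD over all passed cells), and the most was 11 of 22. All intervals here treat cells as independent draws and do not cover differences between animals, since no animal is named. Reads carry no molecular identifiers, so counts are of reads and not of molecules. A median beta member was counted in 8.45% of cells, against 20.3% for the 20256 identifiers counted in any passed cell. Of the 304 cases of a member counted in a cell, 186 had at least 10 counts and 118 had 1 to 9, with a median of 51 counts or 5.94 CPM.

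**Figure D1:**
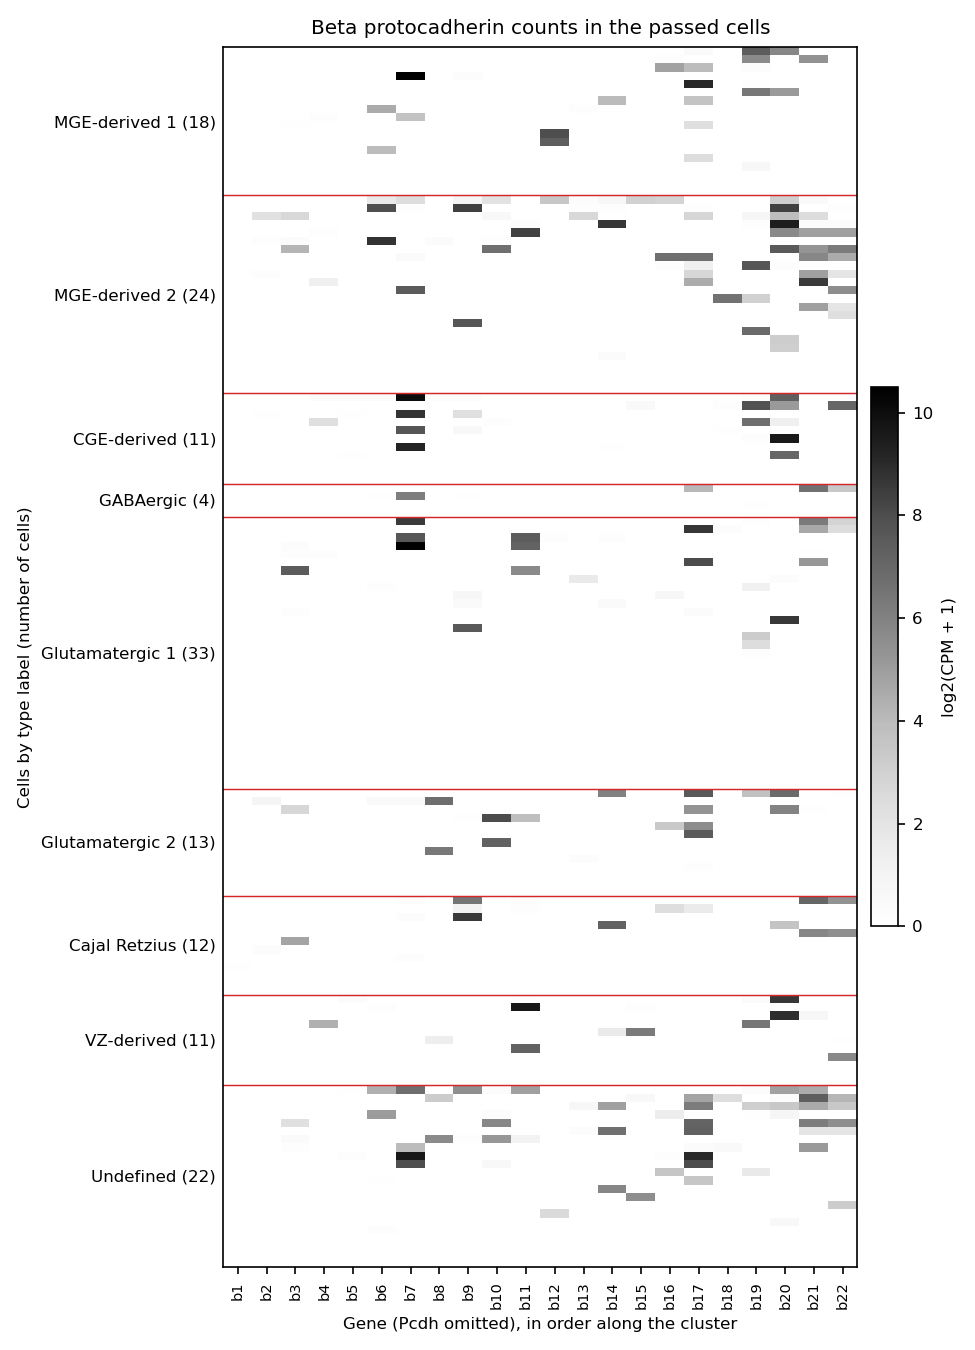
Level of each beta member (columns, in order along the cluster) in each passed cell (rows, by type label, sorted by members counted) as log2(CPM + 1). Most cells show 1 or a few dark fields at different genes, and 40 rows hold no count.

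Cells with many beta members held few beta counts in some cases and many in others. MGE-derived 2 cell 16 held 11 members but only 264 beta counts (41.6 CPM), in a library with 14811 identifiers counted, the most of any cell. MGE-derived 2 cell 17 held 8 members with 344 counts and 13215 identifiers. CGE-derived cell 8, by contrast, held 8 members with 12419 counts, the most beta counts of any passed cell, and 2956 identifiers. Its level was 1190 CPM, below the highest of 1517.5 CPM in Glutamatergic 1 cell 27. MGE-derived 2 cell 11 held 8 members with 6245 counts, and Undefined cell 9 held 9 with 3488. Members with at least 10 counts were fewer, with 2 in CGE-derived cell 8, 3 in MGE-derived 2 cell 11 and 6 in Undefined cell 9. MGE-derived 2 cells 16 and 17 held 7 and 6 such members. Over all passed cells, the number of beta members went with the number of identifiers counted (Pearson r = 0.47, Spearman rho = 0.37) and not with the total count (r = 0.0093, rho = 0.00027). Both measures come from the same library, so these are descriptions. Cells with under 4000 identifiers held a mean of 1.21 beta members (33 cells), and cells with 8000 or more held 3.93 (27 cells).

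In most cells with at least 10 beta counts, a single beta member held nearly all of them. Among these 92 cells, the most counted member took a median of 93.9% of the beta counts, at least 90% in 54 cells, and as little as 23.9% in 1 cell. By label this median was lowest in Undefined (71.9%, 16 cells) and Cajal Retzius (74.4%, 6 cells). The leading member differed between cells, with 18 of the 22 genes leading somewhere. For alpha own counts the leading identifier took a median of 98.2% in 82 cells. This alpha share was 77.8% in the Htr3a line alone, where that of beta was 91.95%, and by label it was 62.3% in Cajal Retzius and 75.9% in Undefined cells. Gamma own counts were spread wider, with 67.4% on the leading identifier in 120 cells and a median of 2 identifiers above 10%.

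Cells seldom held the same combination. The 108 cells with a beta member made 87 different sets, of which 75 occurred in 1 cell, and no set of more than 2 members was repeated. Pairs of cells with the same type label shared at least 1 beta member in 37.0% of 571 pairs, and pairs of different labels in 31.8% of 3434 pairs. For gamma own counts the shares were 52.9% within and 56.0% between labels, and for alpha 37.8% and 39.6%. The Undefined cells are left out of the pairs within and between labels.

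Members counted most often lay at the end of the beta cluster. Pcdhb17 was counted in 31 cells, Pcdhb19 and Pcdhb20 in 28 each, Pcdhb21 in 26 and Pcdhb22 in 23. Pcdhb18, which lies among them, was counted in 6. The 6 genes from Pcdhb17 to Pcdhb22 had a median of 27 cells, and the 16 genes before them a median of 9.5, led by Pcdhb7 with 22. These 6 genes took 44.6% of all beta counts. The cluster lies on chromosome 18 of GRCm38, plus strand, from the start of Pcdhb1 at 37264938 to the end of Pcdhb22 at 37524479. Pcdhb21 and Pcdhb22 overlap in exon sequence in the GENCODE annotation, both were counted in 16 cells, and their reads cannot be told apart there.

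At the other end stood Pcdhb1, with 1 count in 1 Cajal Retzius cell, a level at the limit of a single read. Pcdhb12 was counted in 5 cells. Its level was 252.2 CPM in MGE-derived 1 cell 6 and 162.8 CPM in MGE-derived 1 cell 7, and 9.92, 4.95 and 0.132 CPM in single cells labelled MGE-derived 2, Undefined and Glutamatergic 1. These 2 MGE-derived 1 cells held nearly all its counts. Pcdhb5 was counted in 6 cells and reached 10 counts in none. Per kilobase of exon, the beta level over all passed cells was highest for Pcdhb7 (11.4 CPM per kilobase), then Pcdhb20 (6.88) and Pcdhb17 (4.29). Single cells weigh in these levels, since the cell with most reads held 18.0% of the Pcdhb7 counts, 18.4% of the Pcdhb20 counts and 19.8% of the Pcdhb17 counts.

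Beta genes that neighbour each other were counted in the same cell more often than distant ones. For pairs of adjacent genes, cells holding both numbered 68, which is 2.64 times the number given by the product of their shares. The ratio was 1.92 for genes 2 places apart, 1.88 at 3 places, 1.83 at 4 to 7 places and 1.29 at 8 to 21 places, with the overlapping pair Pcdhb21 and Pcdhb22 left out. The product takes all cells as alike, though cells held 0 to 11 members. The ratios are therefore to be compared with each other and not with 1. Beta genes are close paralogs, and how reads that fit several of them were treated is not given in the sources used here. The part of such reads in these ratios was not tested.

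**Figure D2:**
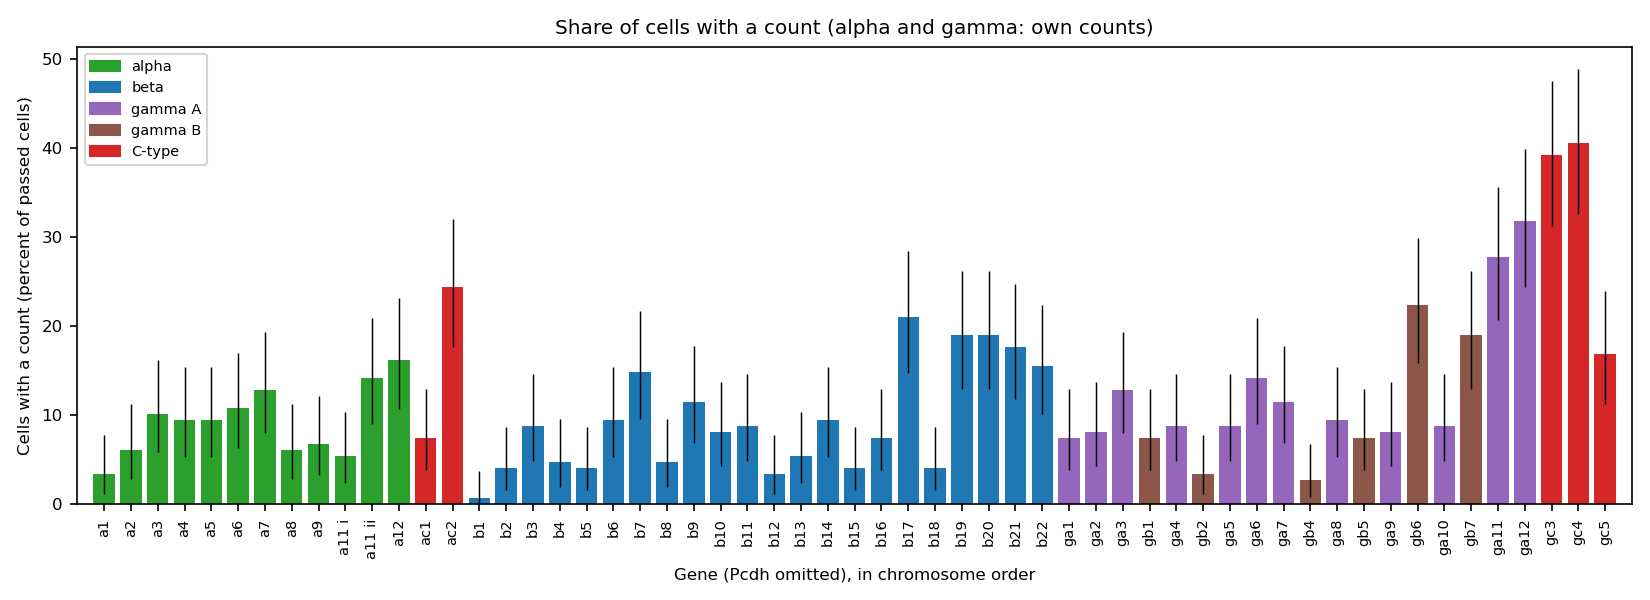
Share of the passed cells with a count of each alpha, beta and gamma member in chromosome order, with exact 95% binomial intervals; alpha and gamma bars use own counts, and a11 i and a11 ii are the 2 identifiers named Pcdha11. The tallest bars are Pcdhgc4 and Pcdhgc3, and within the beta cluster Pcdhb17 and Pcdhb19 to Pcdhb22 stand above most others.

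Of the 5 C-type members, Pcdhgc4 and Pcdhgc3 were counted in more cells than any of the 52 other members, and Pcdhac1 in fewer cells than 32 of them. Own counts of Pcdhgc4 were found in 60 passed cells (40.5% of all, interval 32.6 to 48.9%), of Pcdhgc3 in 58, of Pcdhac2 in 36, of Pcdhgc5 in 25 and of Pcdhac1 in 11. At least 1 C-type member was counted in 103 cells (69.6%). Pcdhgc3 and Pcdhgc4 occurred together in 30 cells, Pcdhgc3 alone of the pair in 28, Pcdhgc4 alone in 30 and neither in 60. Where counted, Pcdhgc4 had a median of 41.8 CPM and reached 483.5 CPM.

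Among the gamma members before the C-type genes, Pcdhga12 was counted in 47 cells, Pcdhga11 in 41, Pcdhgb6 in 33 and Pcdhgb7 in 28, each above Pcdhgc5. With at least 10 own counts Pcdhga11 led with 32 cells, before Pcdhga12 and Pcdhgb6 with 27 each and Pcdhgb7 with 21. Pcdhgc5 then had 12. The Pcdhga12 model has 6664 exon bases against 4756 for Pcdhga11, and the part of this length in its own counts was not tested. Pcdhga10, which lies between Pcdhgb6 and Pcdhgb7, was counted in 13 cells, while Pcdhgb4 was counted in 4 cells and Pcdhgb2 in 5. Of the alpha members before the C-type genes, Pcdha12 led with 24 cells. The longer of the 2 identifiers named Pcdha11 followed with 21, and Pcdha1 was lowest with 5. The longer Pcdha11 model has 7535 exon bases against 5359 for the other, and the part of this length in its own counts was not tested either. Pcdhac1 and Pcdhac2 took 24.9% of alpha own counts, and the 3 gamma C-type members 35.3% of gamma own counts. In all, 91 cells held counts of all 3 clusters, 3 cells held none, and 37 held gamma without beta counts against 6 with beta without gamma.

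**Figure D3:**
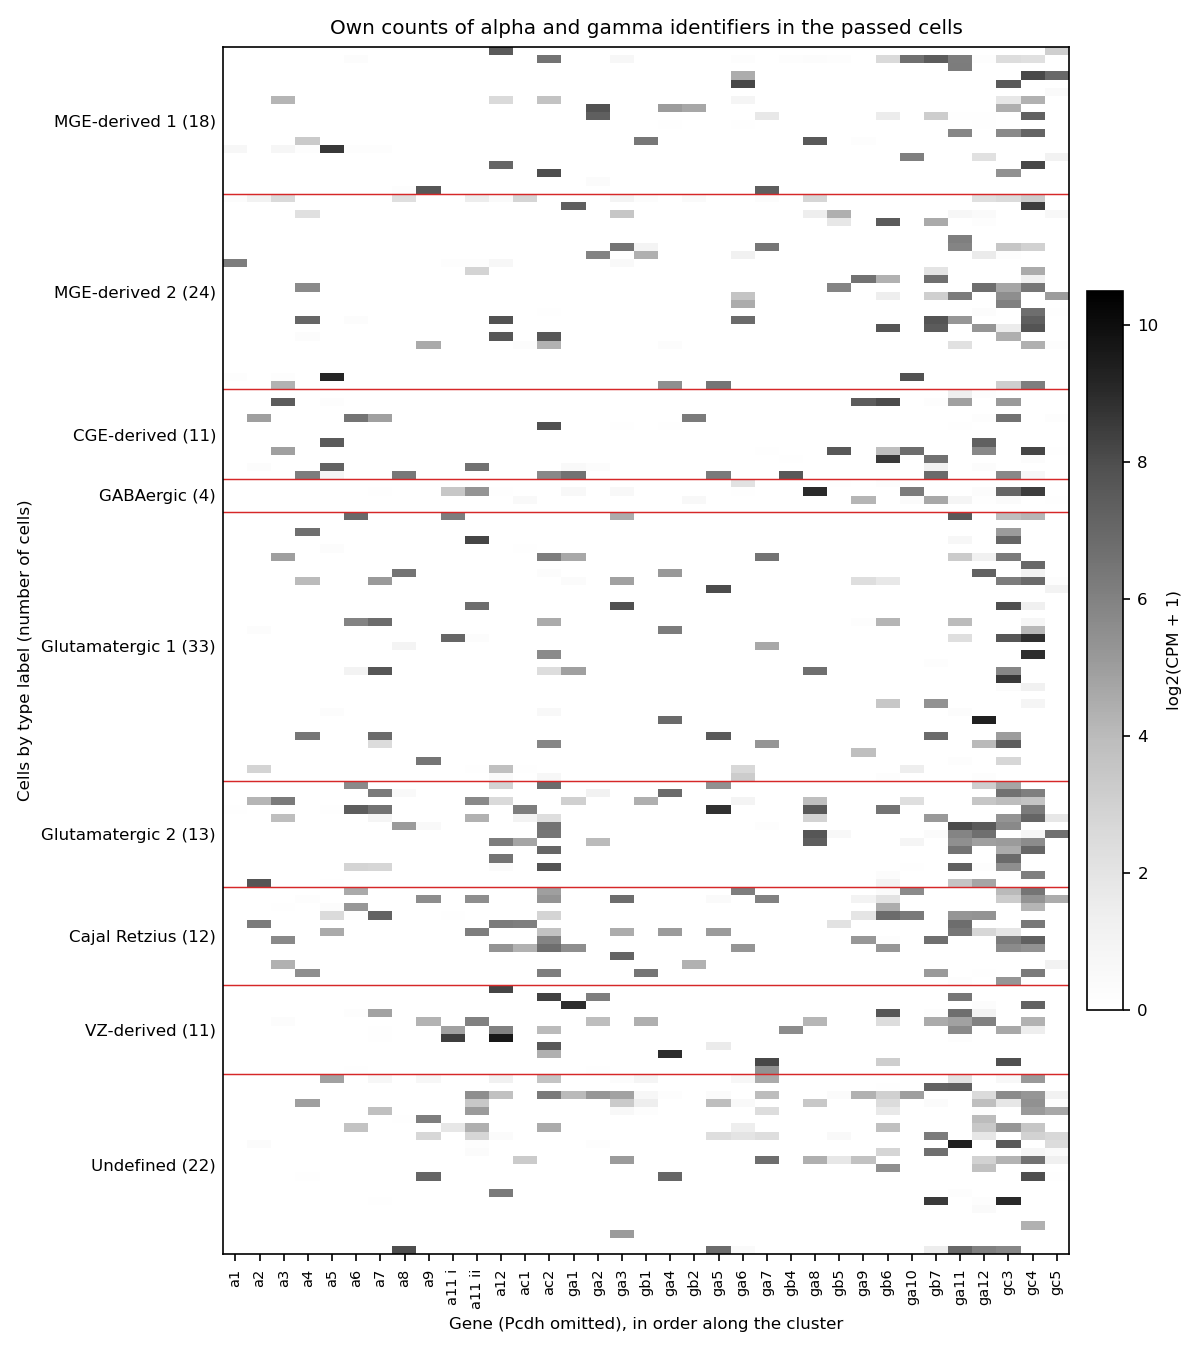
Own counts of the 14 alpha and 21 gamma identifiers as log2(CPM + 1) in the same cells and row order as the plot of beta members; a11 i and a11 ii are the 2 identifiers named Pcdha11. The columns of Pcdhgc3 and Pcdhgc4 are filled in 58 and 60 rows, and most other columns in fewer than 25.

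Beta members per cell differed between type labels by less than the spread between cells in most cases. The mean was 3.21 ± 2.95 (SD, n = 24 cells) in MGE-derived 2, 3 in Undefined, 2.73 ± 2.45 (SD, n = 11 cells) in CGE-derived, 1.77 ± 1.69 (SD, n = 13 cells) in Glutamatergic 2, 1.58 in Cajal Retzius, 1.56 ± 0.98 (SD, n = 18 cells) in MGE-derived 1, 1.55 in VZ-derived and 1.12 ± 1.34 (SD, n = 33 cells) in Glutamatergic 1. The 4 GABAergic cells held 0, 1, 3 and 3 members. All labels had cells with none, 16 of 33 in Glutamatergic 1, and the ranges of all labels overlapped. The lowest, median and highest were 0, 2 and 11 in MGE-derived 2, 0, 2 and 3 in MGE-derived 1, and 0, 1 and 4 in Glutamatergic 1.

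Summed beta levels ran in another order. Over pooled counts they were 343.1 CPM in CGE-derived, 204.6 in MGE-derived 2, 165.2 in VZ-derived, 142.7 in MGE-derived 1, 139.8 in Undefined, 105.3 in Glutamatergic 2, 99.9 in Glutamatergic 1, 72.7 in Cajal Retzius and 48.4 in GABAergic cells. A single cell held 16.6 to 62.1% of a label's beta counts, and without that cell CGE-derived stood at 260.5 CPM and Glutamatergic 1 at 68.0 CPM. The cluster levels of alpha and gamma did not follow the same order, with 186.5 CPM of alpha shared counts in Glutamatergic 1 against 119.7 in MGE-derived 1.

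**Figure D4:**
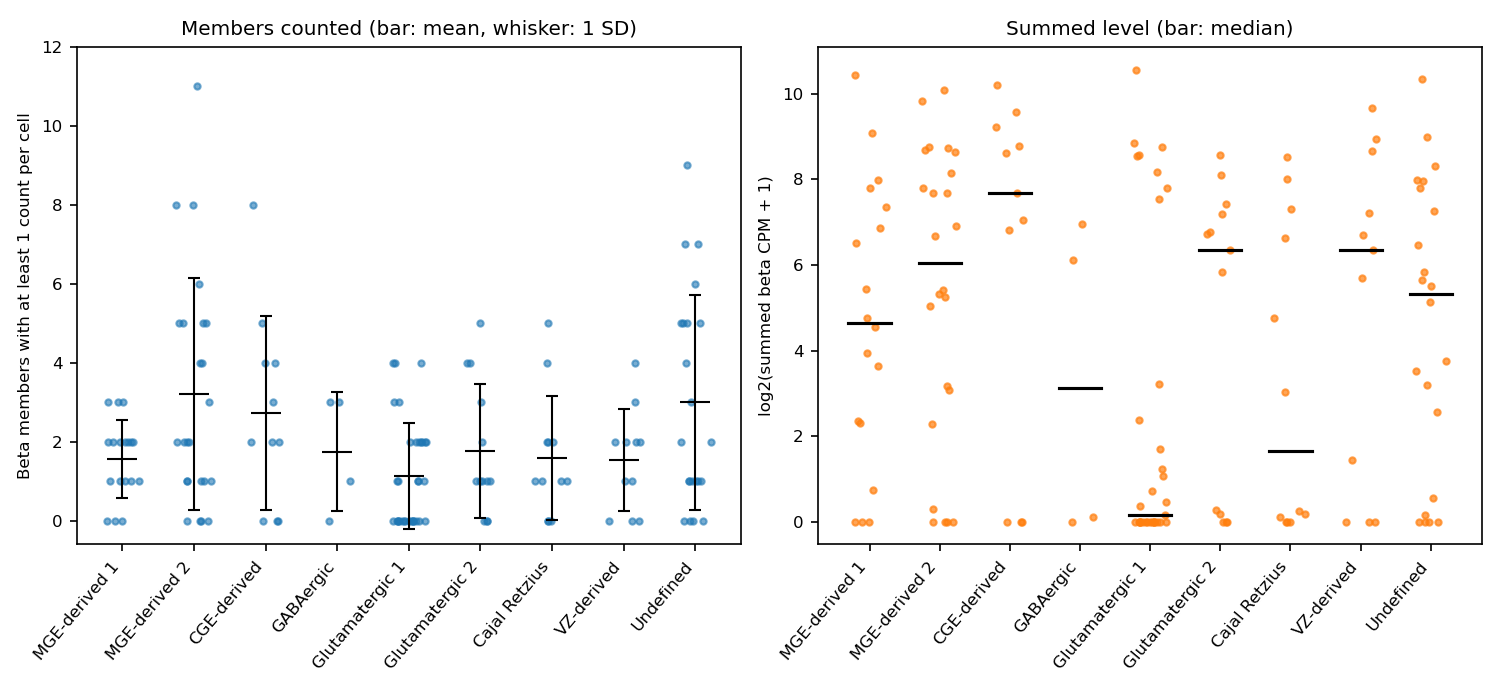
Left, beta members with at least 1 count in each passed cell by type label (points), with the mean and 1 SD between cells; right, the summed beta level of the same cells as log2(CPM + 1), with the median. Every label has cells at 0 in both panels, and the highest points are 11 members in MGE-derived 2 and 1517.5 CPM in Glutamatergic 1.

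Beta members were found in more GABAergic than glutamatergic cells. They were counted in 46 of 57 cells of the GABAergic class (80.7%, interval 68.1 to 89.95%) and in 27 of 46 of the glutamatergic class (58.7%, interval 43.2 to 73.0%), with means of 2.49 ± 2.37 (SD, n = 57 cells) and 1.30 ± 1.46 (SD, n = 46 cells) members. The shortfall lay in Glutamatergic 1, with 17 of 33 cells, since Glutamatergic 2 had 10 of 13. Both classes held about the same number of identifiers per cell, with means of 5689 and 5688. Within the glutamatergic class the means were 4987 in Glutamatergic 1 and 7470 in Glutamatergic 2. The part of the number of identifiers in the shortfall was not tested. With every cell thinned to 1500000 counts the means were 1.77 and 0.87 members, and within the Htr3a line 2.62 and 1.29. The mean log2(summed beta CPM + 1) was 5.17 ± 3.54 against 2.99 ± 3.71 (SD), a difference of 2.17 that is smaller than the spread between cells.

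The alpha cluster did not share this direction. Its shared level differed by -0.65 on the same scale (5.03 ± 3.34 against 5.68 ± 3.16), and that of gamma by 0.37. Of 10 beta members with a count in at least 10% of the cells of either class, 1 was higher by at least 1 on the log2(CPM + 1) scale and 0 were lower, where 6.07% of all genes tested were higher and 9.74% lower by this rule. The median difference of these 10 was 0.49, against -0.02 for all genes. The 1 beta gene was Pcdhb20, counted in 16 of 57 against 4 of 46 cells (40.6 against 13.9 CPM over pooled counts, difference 1.03). Pcdhb19 was counted in 16 against 6 cells, at 14.4 against 0.558 CPM. Without each gene's top cell per class, the ratio of pooled levels went from 2.92 to 5.66 for Pcdhb20 (CGE-derived cell 1 and Glutamatergic 1 cell 28) and from 25.8 to 44.1 for Pcdhb19 (CGE-derived cell 6 and Glutamatergic 2 cell 7). Of gamma, Pcdhgc3 was the only member past the limit, with 14.8 against 38.6 CPM and 20 of 57 against 22 of 46 cells (difference -1.19). Pcdhgc4 was near level, at 47.9 against 44.6 CPM.

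Microglia markers moved with the number of beta members within the GABAergic class. Its 12 cells with over 10 CPM of those markers held a mean of 4 beta members and the other 45 held 2.09, but in the glutamatergic class 12 such cells held 0.83 and the other 34 held 1.47. The mean summed beta level went the other way, at 138.3 CPM in those 12 GABAergic cells against 227.2 CPM in the other 45, and at 127.2 against 108.2 CPM in the glutamatergic class. The summed marker level reached 9496 CPM in the first class and 3469 CPM in the second, and all 6 markers were counted in both. Without those cells (45 against 34 left, chosen after seeing the data) the difference in summed beta level was 1.42, down from 2.17, and 0 members were higher by at least 1. Their part in the result was not tested.

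**Figure D5:**
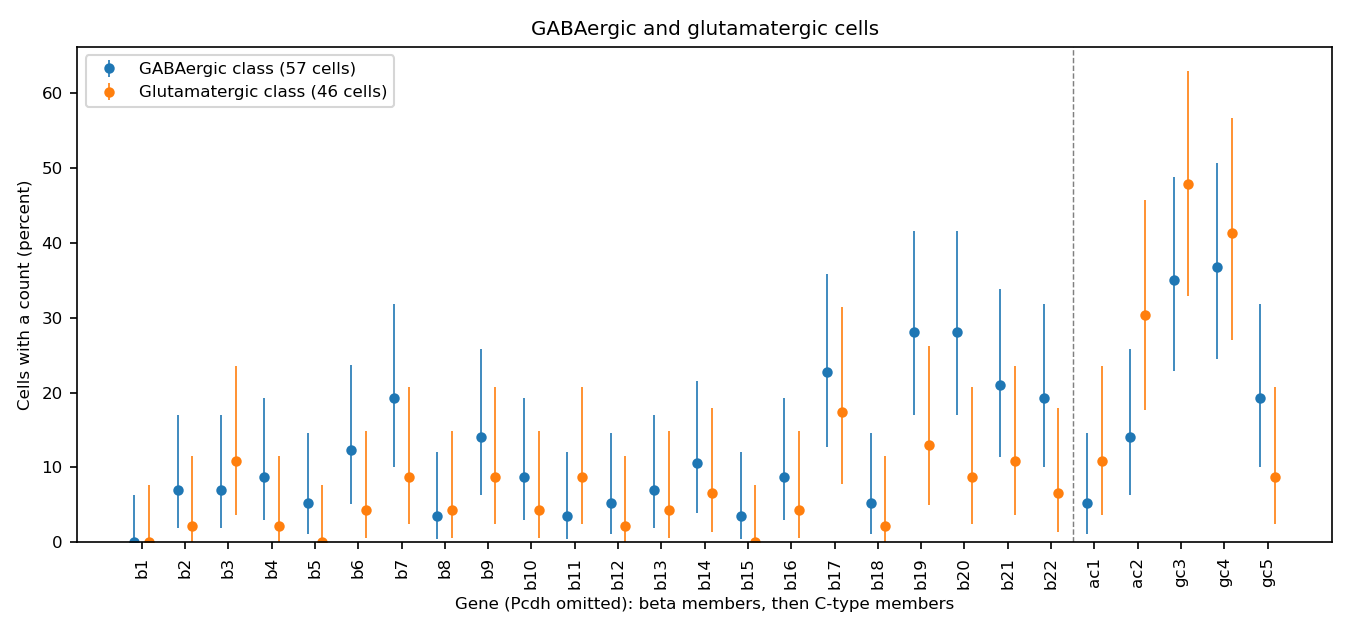
Share of cells with a count of each beta member and of the 5 C-type members in the GABAergic class (57 cells) and the glutamatergic class (46 cells), with exact 95% binomial intervals. Pcdhb20 was counted in 28.1% against 8.70% of cells, and for Pcdhgc3 the order was the other way, 35.1% against 47.8%.

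Pcdhb7 and Pcdhb20 stood higher in CGE-derived than in MGE-derived cells by at least 1 on the log2(CPM + 1) scale. Pcdhb7 was counted in 4 of 11 CGE-derived cells, at 203.5, 436.2, 593.4 and 1031.4 CPM. In MGE-derived cells it was counted in 6 of 42, at 0.145, 0.311, 4.25, 11.4, 176.4 and 1380.5 CPM. The ranges overlapped, since 1 MGE-derived cell stood above all CGE-derived cells, and most cells of both groups held none. Pooled levels were 216.5 against 27.4 CPM (7.91-fold, and 22.3-fold without CGE-derived cell 8 and MGE-derived 1 cell 13), a difference of -2.66 for MGE-derived minus CGE-derived on the log2(CPM + 1) scale. Pcdhb20 was counted in 5 of 11 CGE-derived cells, between 1.42 and 759.6 CPM, and in 11 of 42 MGE-derived cells, between 0.14 and 683.0 CPM (difference -1.44).

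In the other direction, Pcdhb21 was counted in 11 of 42 MGE-derived and in 0 of 11 CGE-derived cells. This made 1 beta member higher and 2 lower in MGE-derived cells of 13 tested, where 17.4% of all genes were higher and 10.8% lower. Without the cell of highest beta level in each group (MGE-derived 1 cell 13 and CGE-derived cell 8), 1 member was lower. Pcdhga12 was counted in 11 of 42 against 5 of 11 cells, at 4.70 against 23.2 CPM. The mean log2 of the summed beta level differed by -1.10 (5.08 ± 3.37 against 6.18 ± 4.10), less than the spread, and among cells with 4000 to 8000 identifiers the sign turned, to 0.56 (26 against 8 cells).

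MGE-derived 2 cells held more beta members on average than MGE-derived 1 cells, with means of 3.21 and 1.56. The median was 2 in both labels, and 83.3% of the cells of each held at least 1. The 3 members past the limit of 1 lay at the end of the cluster. Among them, Pcdhb21 and Pcdhb22 overlap in exon sequence, and their reads cannot be told apart there. Pcdhb22 was counted in 9 of 24 cells against 0 of 18, between 0.145 and 75 CPM, Pcdhb21 in 10 against 1, and Pcdhb20 in 9 against 2. Their differences, MGE-derived 1 minus MGE-derived 2, were -1.16, -1.27 and -1.24. The 3 lower and 0 higher beta members of 15 tested stand beside 22.6% of all genes lower and 2.61% higher, so the share of lower members was close to that of all genes. MGE-derived 2 cells also had more identifiers counted, with a mean of 6484 against 4727, and 8 of 24 against 1 of 18 cells had over 10 CPM of microglia markers. The 8 held a mean of 4.50 beta members and the other 16 held 2.56, at mean beta levels of 141.1 and 240.1 CPM. The part of either in the result was not tested.

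On the mean log2(CPM + 1) scale, Glutamatergic 1 cells were lower than Glutamatergic 2 cells in most tested members of all 3 clusters. Many genes outside these clusters were lower too. Pooled cluster levels did not all follow, at 99.9 against 105.3 CPM for beta and 186.5 against 174.4 CPM for alpha shared counts. Those of gamma shared counts were 119.5 against 200.6 CPM. Pcdhb17 was counted in 3 of 33 cells, at 0.256, 255.1 and 404.3 CPM, and in 5 of 13, at 0.14, 39.4, 46.8, 171.6 and 188.8 CPM (difference -1.49). The 2 highest levels were in Glutamatergic 1, while the share of cells with the gene was higher in Glutamatergic 2. Pcdhb10 and Pcdhb8 were each counted in 2 of 13 cells (260.3 and 145.4 CPM; 107.1 and 81.0 CPM) and 0 of 33.

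Outside the beta cluster, Pcdhga11 was counted in 7 of 33 against 6 of 13 cells (difference -2.28), Pcdhga8 in 1 against 5 (-2.06) and Pcdhac2 in 8 against 6 (-2.05). Of 7 beta members tested 3 were lower and 0 higher, where 48.7% of all genes were lower and 1.19% higher. Identifiers per cell averaged 4987 in Glutamatergic 1 and 7470 in Glutamatergic 2. The share of lower members was below that of all genes, and the part of the number of identifiers was not tested.

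Cajal Retzius cells, early-born reelin-secreting neurons of the cortical surface, were near the glutamatergic class in beta level and higher in gamma level. The mean log2 of the summed beta level was 3.24 ± 3.58 against 2.99 ± 3.71, and that of the gamma shared level 6.85 ± 1.31 against 5.50 ± 3.10. All 12 Cajal Retzius cells held gamma shared counts, against 39 of 46 in the glutamatergic class. A cell without shared counts can still hold own gamma counts, as Glutamatergic 1 cell 1 did with 5147. Own gamma members averaged 4 per cell against 2.63. The 1 beta member past the limit was Pcdhb9, at 370.3, 87.4 and 1.07 CPM in 3 cells and 0 in the other 9 (difference 1.15); 8 were tested, 0 were lower, and all genes stood at 34% higher and 7.97% lower. Without the cell of highest summed beta level in each group (Cajal Retzius cell 1 and Glutamatergic 1 cell 27), 0 beta members were higher. Pcdhgb6 was counted in 6 of 12 against 7 of 46 cells (16.2 against 4.78 CPM, difference 1.20). That ratio of 3.39 was 7.44 without Cajal Retzius cell 11 and Glutamatergic 2 cell 2. Pcdhgc3 was counted in 6 of 12 against 22 of 46, at 12.7 against 38.6 CPM (difference -0.47). Cajal Retzius cells had a mean of 7055 identifiers against 5688. This comparison and the next share the glutamatergic cells with the comparison of classes.

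VZ-derived cells held beta members in 8 of 11 cells, in few genes at high level. Pcdhb11 was found at 813.2, 147.8 and 0.0813 CPM in 3 cells and Pcdhb20 at 490.5 and 401.9 CPM in 2. Differences from the glutamatergic class were 1.02 and 1.13, and these 2 of 8 tested were higher with 0 lower, where 11.6% of all genes were higher and 14.7% lower. Without the cell of highest beta level in each group (VZ-derived cell 8 and Glutamatergic 1 cell 27), 1 was higher. In the 8 VZ-derived cells with at least 10 beta counts, the leading member took a median of 99.9% of them. Pcdhgc4 was counted in 3 of 11 against 19 of 46 cells, at 8.07 against 44.6 CPM (difference -0.74). Without VZ-derived cell 4 and Glutamatergic 1 cell 1 the Pcdhgc4 ratio went from 5.53 to 26.6. Summed beta differed by 1.98 (4.97 ± 3.86 against 2.99 ± 3.71), less than the spread between cells.

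Genes that act on promoter choice or chromatin, such as Ctcf and the cohesin subunits that loop distant enhancers to these promoters, were compared as a list. Of 16 on the list, 9 were higher and 0 lower in Cajal Retzius than in glutamatergic cells, led by the DNA methyltransferase Dnmt3a (219.4 against 46.4 CPM, difference 4), where 34% of all genes were higher. In Glutamatergic 1, 9 of 16 were lower than in Glutamatergic 2, close to the 48.7% of all genes. In MGE-derived 1, 7 of 16 were lower than in MGE-derived 2, among them Ctcf (26.3 against 137.8 CPM, difference -3.17), where 22.6% of all genes were lower. Of 15 tested between the classes, 3 were higher in GABAergic cells and 0 lower, with the cohesin subunit Stag1 at 74.3 against 36.6 CPM, where 6.07% of all genes were higher. No test compared the list with all genes.

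Genes of protocadherin signalling and processing gave 3 higher and 1 lower of 15 between the classes, where 6.07% of all genes were higher and 9.74% lower. Cyfip1, a subunit of the WAVE actin regulator, stood at 207.1 against 66.6 CPM (difference 2.24). The kinase gene Ptk2b stood at 2.87 against 90.6 CPM (difference -2.14). In Glutamatergic 1, 11 of 15 were lower than in Glutamatergic 2, where 48.7% of all genes were lower. The kinase gene Ptk2, whose product clustered protocadherins are known to bind, was counted in 16 of 33 against 13 of 13 cells.

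As a scale, 12 non-clustered protocadherins were counted in 4 to 84 passed cells each (median 56.5), and 9 of them in more cells than the most widely counted beta member, at 31 cells. The highest were Pcdh17 in 84 cells, Pcdh9 in 83 and Pcdh7 in 78, the lowest was Pcdh12 in 4, and 6 of the 12 were counted in more cells than Pcdhgc4, at 60.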

How the data were processed

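Single-cell RNA libraries of 162 cells were used. Per the submitters' processing notes, the authors used Trimmomatic, STAR, featureCounts and the GRCm38 build, with no versions or options; how multi-overlapping or multi-mapping reads and strand were treated is not given in the sources used here. The authors deposited a table of raw read counts by Ensembl identifier (22880 identifiers) and a normalized table for the 148 passed cells, whose values behave as signal: counts divided by 1 factor per cell (99.8% of nonzero values within 0.1%). Another deposited table, of counts by symbol, was held only in part and not used.

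Symbols and positions came from GENCODE M21, of the same build. Each count was scaled to 1000000 counts of its cell (CPM), where 1 count was worth 0.0403 to 0.585 CPM. Alpha and gamma counts were split into a shared count, the lowest over the cluster's identifiers, and own counts above it. Thinning drew 1500000 counts per cell without replacement (seed 1), which kept all 148 passed cells; own alpha and gamma counts were split first and thinned after. Per gene, log2(CPM + 1), a pseudocount of 1 CPM, was averaged over the cells and the averages subtracted. Genes entered if 10% or more of the cells in either group counted them, and are called higher or lower from a difference of 1 upwards. No test was run, as no animal or litter is named. Shares have exact Clopper-Pearson 95% intervals. Calculations used Python 3.11.15, numpy 2.4.6, pandas 2.3.3, scipy 1.17.1 and matplotlib 3.10.9, and the functions were tested on simulated data.

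The members named are the 5 C-type members, the 3 most and 2 least widely counted per group of members, and, per comparison, up to 4 per direction that the higher group counted in 30% or more of its cells and at 5 CPM or more, with a 2-fold ratio of pooled levels, also without the top cell. Up to 4 pathway genes per comparison were named by difference. Other members (Pcdhb5, Pcdhb7, Pcdhb8, Pcdhb9, Pcdhb10, Pcdhb11, Pcdhb18, Pcdhb21, Pcdhb22 and Pcdhga10 where that rule does not reach them) were named after their values were seen. The members and lists were chosen with earlier results of these data known. The 14 failed cells entered no comparison. Alternatives changed the count threshold, depth, pseudocount, table, line, number of genes per cell and single cells.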

Additional observations from a re-analysis of the deposited data

Results flagged for a closer look

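Among 24 combinations of a group of 4 to 10 passed cells and a measure, 4 had a single cell far from the rest. For normally distributed values chance flags about 1 in 20 groups; these levels are skewed, and the chance rate for them was not measured. Of 8 VZ-derived cells of the Htr3a Cre line, cell 6 had a gamma shared level of 532 CPM, against 224.4 CPM in the next. Of 7 MGE-derived 2 cells of the Lhx6 Cre line, cell 3 had a summed beta level of 1082.4 CPM, against 428.7 CPM. Of 10 Glutamatergic 1 cells of the Nex Cre line, cell 27 had 1517.5 CPM of beta counts, against 432 CPM in the next and a median of 1.13 CPM. Of 4 Undefined cells of the Nex Cre line, cell 20 had a gamma shared level of 348 CPM, against 25.2 CPM. Among the 14 failed cells, which no comparison used, Failed cell 12 held 3662.1 CPM of beta counts, above the highest passed cell at 1517.5 CPM, while the median failed cell held 0.207 CPM.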

How the results depend on the processing

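Single reads, neighbouring paralogs and cells limit these results: 118 of 304 cases of a counted beta member rest on 1 to 9 counts, a member at 0 is only below detection in that cell, and no group has a replicate above the cell. No paired analysis was possible because cells carry no replicate numbers in the labels. The alternative with counts by symbol was not run, since no beta gene was in the part of that table held here.

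Beta members per cell (2.05) and the share on the leading member moved by less than the SD between cells under each alternative run. For members that SD was 2.14, above the mean itself, so a fall to no members would also have kept within it. The mean was 1.26 members with at least 10 counts, 1.28 with at least 1 CPM and 1.47 after thinning. Cells with none numbered 40 in the main setting and 56 with at least 10 counts. The alpha share on the leading identifier went from 98.2% to 77.8% in the Htr3a line alone, a move below the SD of that share between cells. Without each of the 4 GABAergic cells in turn, that label's mean ranged from 1.333 to 2.333. The summed beta difference moved by less than the SD between cells in every comparison. That SD was larger than the differences themselves, so the loss of a whole difference would also have kept within it. For GABAergic minus glutamatergic the SDs were 3.5 and 3.7, beside a difference of 2.17. MGE-derived minus CGE-derived changed sign, from -1.10 to 0.56, in cells with 4000 to 8000 genes, and the cause was not tested.

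Counts of beta members past the limit were less stable, and causes were not tested. The share of all genes past the limit was worked out for the main setting only. The counts below therefore have no such scale beside them and show only how far the calls move. From pooled counts, members higher and lower became 7 and 1 for GABAergic minus glutamatergic, 3 and 3 for Cajal Retzius, 5 and 3 for VZ-derived and 3 and 9 for MGE-derived 1 minus MGE-derived 2, with 7 higher for MGE-derived minus CGE-derived and 2 higher for Glutamatergic 1. A pseudocount of 10 CPM left 0 higher for GABAergic, MGE-derived, Cajal Retzius and VZ-derived, 1 lower for MGE-derived, and 0 lower for Glutamatergic 1 and MGE-derived 1. A pseudocount of 0.1 CPM gave 2 higher for GABAergic and MGE-derived, 3 higher and 1 lower for Cajal Retzius and 1 lower for VZ-derived. The normalized table gave 2 higher for MGE-derived and 1 lower for Cajal Retzius and VZ-derived. The Htr3a line alone gave 2 higher for GABAergic and for MGE-derived. Cells with 4000 to 8000 genes gave 2 higher and 1 lower for MGE-derived, 0 higher for Cajal Retzius, 1 higher and 1 lower for Glutamatergic 1 and 1 higher for MGE-derived 1. Thinning gave 1 higher for VZ-derived. Without the cell of highest level in each group, 0 were higher for Cajal Retzius, 1 for VZ-derived, and 1 lower for MGE-derived. Without cells with microglia markers, an alternative chosen after seeing the data, 0 were higher for GABAergic.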

Other observations

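Of the 14 failed cells, 8 held at least 1 beta member (57.1%, exact interval 28.9 to 82.3%), with a summed beta level of 296 CPM over pooled counts and 47.9 CPM without Failed cell 12. Gamma C-type members took 61.4% of gamma own counts in the failed cells and 35.3% in the passed cells, but 21.7% in the failed cells without Failed cell 4.

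The VZ-derived cells held the highest pooled level of Pcdha12, at 142.9 CPM over 3 of 11 cells, against 4.15 CPM in the glutamatergic class. VZ-derived cell 6, at 775.1 CPM of Pcdha12, held 70.7% of those counts, and without it the level was 48.2 CPM. Of all gamma own counts, C-type members took 55.5% in Glutamatergic 1, 27.5% in Glutamatergic 2 and 15.6% in VZ-derived cells. Without the cell of most C-type counts in each label these shares were 46.7%, 21.7% and 8.13%, the last without VZ-derived cell 11. The values without single cells were chosen after seeing the data.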
